A study of Mus musculus with 8 samples.

Results

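B cell, follicle and plasma cell transcripts were followed in the colon of 8 male mice through 29 genes: B cell receptor and surface genes, receptor signalling genes, transcription factors of the lineage, plasma cell genes and genes of the lymphoid follicle. They were matched to the array by their current or older symbols. All 29 genes were found, on 39 of 41174 probes, out of 19440 genes that could be named. Cxcr5 stands on the array under its older symbol Blr1 and Mzb1 under a clone name, while Igj and Faim3 are the older symbols of Jchain and Fcmr.

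The Mdr1a-/- mouse lacks Abcb1a, which encodes a drug efflux transporter, is kept on the FVB/N background and serves as a model of inflammatory bowel disease. Per the labels, 4 arrays carry colon RNA from Mdr1a-/- males scored high for histological injury of the colon, and 4 carry RNA from FVB/N males scored low. Mice of both groups ate the AIN-76A powdered control diet and were 21 to 24 weeks old, and each array holds 1 mouse. The mice were picked for the arrays on their score, so genotype and score cannot be told apart, and which part of the colon was taken is not stated by the labels. Every sample, in Cy3, was set against 1 common reference in Cy5 that pooled small intestine, colon, kidney and liver of adult Swiss mice and whole fetuses. Values below are log2(sample / reference), and a log2 fold change is Mdr1a-/- high minus labelled FVB/N low.

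The labels of the second group are in doubt. The single Abcb1a probe had a log2 ratio of -0.88 ± 0.12 (SD, n = 4) on the Mdr1a-/- arrays and -0.48 ± 0.35 (SD, n = 4) on those labelled FVB/N, which differ by -0.40 ± 0.19 (SE, limma adjusted p = 0.362) as a log2 fold change. For this probe the value in the authors' deposited table is -1.62. The protocol lists the slides of each group, and 3 of 4 Mdr1a-/- arrays but 0 of 4 arrays labelled FVB/N are on a listed slide. The second group is therefore called the arrays labelled FVB/N throughout, and every direction below rests on the labels. The remaining Mdr1a-/- array is on no listed slide either, so the doubt is not confined to that group. Which array it is, is not given here. Across the 8 arrays 67.0% to 86.3% of probes were above background, meaning a Cy3 net signal over the 95th percentile of the negative control spots. The Abcb1a probe was near that limit, with a signal between 0.88 and 1.83 times it. It was above background on 3 of 4 Mdr1a-/- arrays and on all 4 labelled FVB/N. As a check of the tissue, all 7 epithelial markers were above background on all 8 arrays. That check cannot show whether other tissue was mixed in.

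B cells carry on their surface an immunoglobulin that signals through the paired chains Cd79a and Cd79b, and co-receptors raise or lower the strength of that signal. In the gut wall they gather in Peyer's patches, in colonic patches and in smaller isolated lymphoid follicles, where the chemokine Cxcl13 draws in cells that bear its receptor Cxcr5, and lymphotoxin made by lymphocytes keeps stromal cells producing the chemokine. Activated cells can become plasma cells, which settle in the lamina propria and secrete antibody, mostly IgA joined by the J chain and carried across the epithelium by the polymeric immunoglobulin receptor. In bulk tissue fewer cells of a type and less RNA per cell cannot be told apart.

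Of the 29 genes, 2 rose at an adjusted p under 0.05 in limma over all 41174 probes and 0 fell: the follicle chemokine Cxcl13 and Ly86, which encodes the secreted partner (MD-1) of the B cell and macrophage surface protein Cd180. Over all probes 1.53% were called higher and 1.45% lower. At an unadjusted p under 0.05 there were 9 genes, 8 higher and 1 lower, against 14.9% of all probes. The log2 fold change was above 0 for 24 and below 0 for 5, with a median of 0.36, beside a median of 0.03 and 54.4% above 0 over all named genes. The 4 Mdr1a-/- arrays lay above all 4 others for 5 genes, Cxcl13, Ly86, Pou2af1, Btk and Blnk, and below them for 0, where 5.31% and 4.94% of all probes did so. The signal was above background on all 8 arrays for 22 of the 29 genes and on at least 4 arrays for every one of them. It was under 3 times the background limit on all 8 arrays for 13. These were Cd79a, Cd22, Cd37, Cd180, Fcer2a, Btk, Bank1, Blk, Pax5, Ebf1, Spib, Pou2f2 and Prdm1. Btk, 1 of the 5 genes without overlap, is thus among the dim ones.

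**Figure D1:**
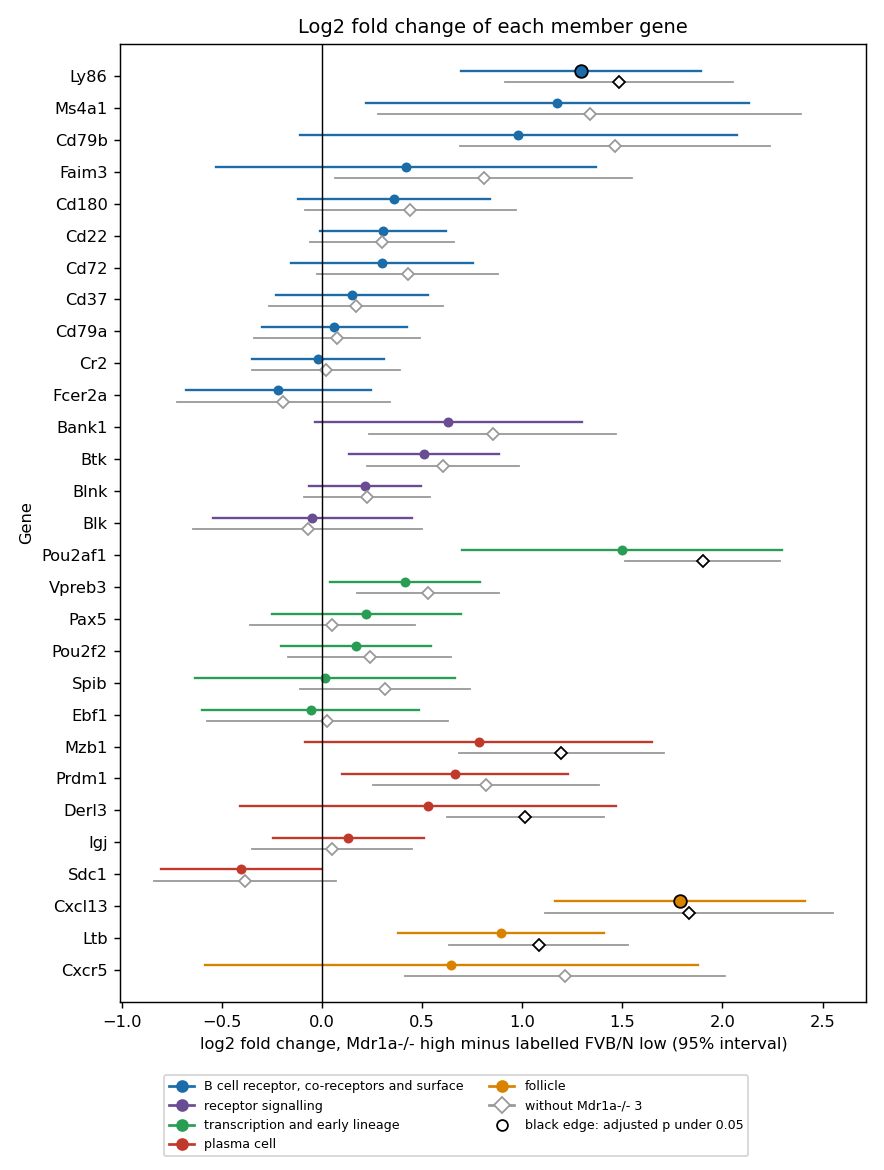
Log2 fold change, Mdr1a-/- high minus labelled FVB/N low, of the brightest probe of each of the 29 genes, with 95% intervals, coloured by role; grey diamonds give the same without Mdr1a-/- replicate 3, and a black edge marks an adjusted p under 0.05. With all arrays Cxcl13 and Ly86 have a black edge, and without replicate 3 Pou2af1, Mzb1, Derl3 and Ltb have one as well.

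Cxcl13, a chemokine that follicular stromal cells make, had the largest fold change of the 29 genes. Its log2 ratio was 3.55, 3.45, 3.36 and 3.62 on Mdr1a-/- arrays 1 to 4, and 2.10, 1.83, 0.79 and 2.11 on the arrays labelled FVB/N. The groups did not overlap, the Mdr1a-/- arrays lay close together, and array 3 of the other group was the lowest. The log2 fold change was 1.79 ± 0.28 (SE, n = 4 per group, limma adjusted p = 0.0108), and with any 1 of the 8 arrays left out it lay between 1.48 and 1.92 at an adjusted p of 0.0429 or less. Blocking on scan day left it at 1.79 but raised the adjusted p to 0.0696, and the days taken alone gave 2.06 (day 2) and 1.39 (day 3). The scan-day block called 0 of the 29 genes and 0.323% of all probes higher. Cxcl13 did not follow the other follicle genes on Mdr1a-/- array 3. There it was level with its group, while Cxcr5, at -0.81, was the lowest of all 8 arrays and Ltb, at 1.93, the lowest of its group. The mean over the 8 myeloid markers was 0.57 on that array, within the range of its group. Which cells the Cxcl13 signal came from was not tested.

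Ly86 was the other gene called. Its log2 ratio was 1.74, 1.95, 1.14 and 2.00 on the Mdr1a-/- arrays and 0.35, 0.81, -0.20 and 0.70 on those labelled FVB/N. The groups did not overlap, and array 3 was the lowest in each. This gave a log2 fold change of 1.29 ± 0.27 (SE, n = 4 per group, limma adjusted p = 0.0352). Ly86 was no longer called when Mdr1a-/- array 1, 2 or 4 or labelled FVB/N array 1, 3 or 4 was dropped, with adjusted p-values of 0.0660 to 0.114, or when scan day was a block (1.22, adjusted p = 0.170). Within scan day 3 it was 0.38. Macrophages express Ly86 too, and the 8 myeloid markers of the comparison below were above 0 in their fold change without exception; their part in this result was not tested.

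The promoters of these 2 genes are shown because they belong to the only members called. Each is the stretch from 250 bases before to 50 bases after the gene's start in the RefSeq annotation of GRCm38.p6, read along the gene's own strand, Cxcl13 at chr5:95956689-95956988 (+) and Ly86 at chr13:37345095-37345394 (+). Capitals would mark the octamer ATGCAAAT, the site bound by the Oct factors with which Pou2af1 works, or the ETS-type word GAGGAAGT, of the kind bound by PU.1 and Spib, on either strand; the 2 words do not overlap each other, and neither is in these windows.
Cxcl13: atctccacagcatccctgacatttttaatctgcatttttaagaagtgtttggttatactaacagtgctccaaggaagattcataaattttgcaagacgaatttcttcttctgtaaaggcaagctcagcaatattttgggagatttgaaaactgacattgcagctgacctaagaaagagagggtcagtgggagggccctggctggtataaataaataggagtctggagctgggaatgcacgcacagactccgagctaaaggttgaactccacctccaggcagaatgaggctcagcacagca
Ly86: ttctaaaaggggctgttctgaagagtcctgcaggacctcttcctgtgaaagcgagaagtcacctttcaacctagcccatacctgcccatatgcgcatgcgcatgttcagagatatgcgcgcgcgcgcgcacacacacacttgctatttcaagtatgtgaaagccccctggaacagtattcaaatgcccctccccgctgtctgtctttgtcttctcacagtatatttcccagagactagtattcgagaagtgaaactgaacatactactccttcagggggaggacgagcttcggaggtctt

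The other follicle genes, Ltb and Cxcr5, were not called. Ltb encodes lymphotoxin beta, the membrane anchor of the lymphotoxin complex. Its log2 ratio was 2.48, 2.88, 1.93 and 2.68 on the Mdr1a-/- arrays and 1.41, 1.42, 1.54 and 2.00 on those labelled FVB/N. Mdr1a-/- array 3 lay below the highest array of the other group, so the groups overlapped by 1 array. The log2 fold change of 0.90 ± 0.23 (SE) missed the threshold (n = 4 per group, limma adjusted p = 0.0783). Cxcr5, the receptor for Cxcl13 on B cells and follicular helper T cells, had log2 ratios of 1.05, 1.87, -0.81 and 1.47 against -0.16, 0.04, -0.06 and 1.19. Mdr1a-/- array 3 was the lowest of all 8, and array 4 of the group labelled FVB/N lay above Mdr1a-/- array 1. Its probe was above background on 3 arrays of each group, and Cxcr5 differed by 0.65 ± 0.55 on the log2 scale (SE, limma adjusted p = 0.668).

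**Figure D2:**
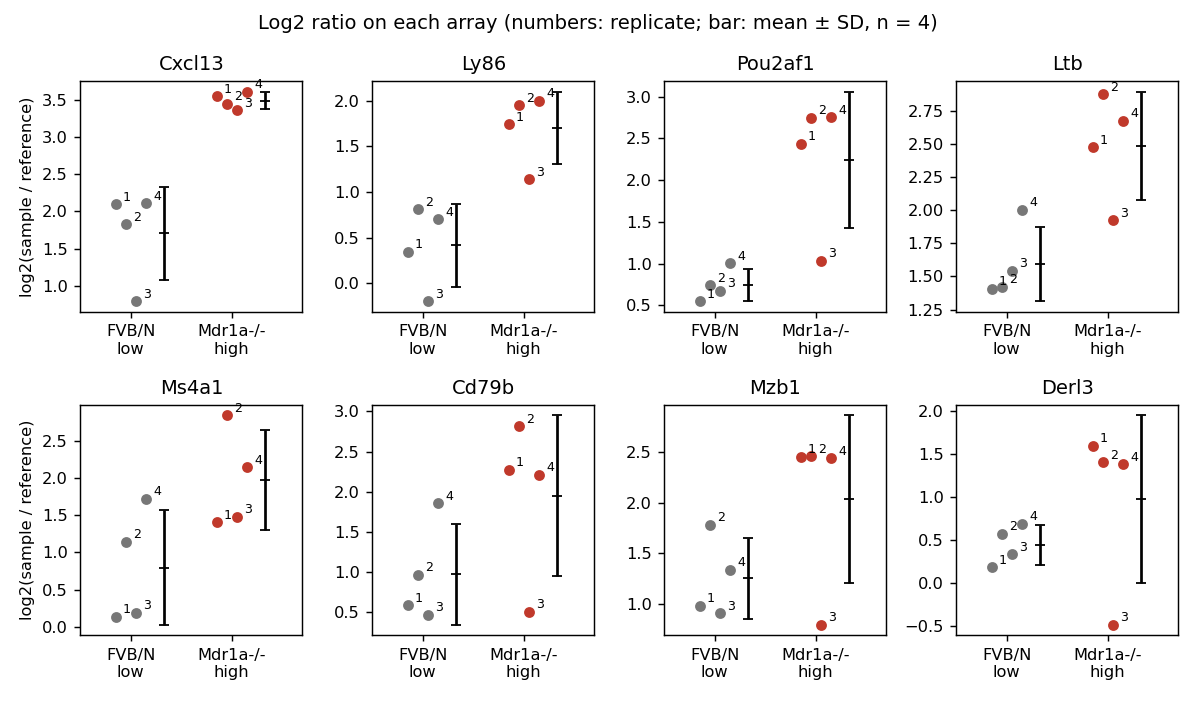
Log2(sample / reference) of 8 genes on each array, numbered by replicate, with the mean and SD of each group (n = 4) beside the points. Cxcl13 separates the groups with Mdr1a-/- replicate 3 at 3.36, while replicate 3 lies among or below the arrays labelled FVB/N for Cd79b, Mzb1 and Derl3.

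Among the 11 genes of the B cell surface, 9 had a fold change above 0 and Ly86 alone was called. Ms4a1 encodes CD20, the marker of mature B cells. Its log2 ratio was 1.40, 2.85, 1.48 and 2.15 on the Mdr1a-/- arrays and 0.13, 1.14, 0.19 and 1.72 on those labelled FVB/N, where array 4 stood above 2 of the Mdr1a-/- arrays. Ms4a1 had a log2 fold change of 1.17 ± 0.43 (SE, n = 4 per group, limma adjusted p = 0.218), and the dimmer probe of the gene gave 0.42. Cd79b, a signalling chain of the receptor, had log2 ratios of 2.27, 2.82, 0.50 and 2.21 against 0.59, 0.96, 0.47 and 1.86. Mdr1a-/- array 3 sat among the lowest arrays and array 4 of the group labelled FVB/N near the other Mdr1a-/- arrays. For Cd79b the difference was 0.98 ± 0.49 on the log2 scale (SE, limma adjusted p = 0.397).

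Faim3, the Fc receptor for IgM, was also low on Mdr1a-/- array 3 and high on array 4 of the other group, with log2 ratios of 0.71, 1.85, -0.36 and 1.03 against 0.10, 0.51, -0.02 and 0.96, and a log2 fold change of 0.42 ± 0.42 (SE, limma adjusted p = 0.729). Cd180, the surface partner of Ly86, had a log2 fold change of 0.36 ± 0.21 (SE, adjusted p = 0.498 in limma). Its other probe, above background on 1 array, gave -0.40, so the 2 probes of Cd180 differ in sign. The inhibitory receptors Cd22 and Cd72 had log2 fold changes of 0.30 each, and the tetraspanin Cd37 one of 0.15. Cd79a, the partner chain of Cd79b, gave 0.06, but its signal lay between 0.94 and 2.57 times the background limit, against 3.04 to 19.0 times for Cd79b. The complement receptor Cr2, found on B cells and follicular dendritic cells, gave -0.02 on its brighter and 0.47 on its dimmer probe, and the low-affinity IgE receptor Fcer2a gave -0.22. None of these passed the test.

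The 4 receptor signalling genes held 0 called. The kinase Btk had log2 ratios of 0.59, 0.93, 0.45 and 1.00 against 0.29, 0.01, 0.28 and 0.35, which did not overlap, and a log2 fold change of 0.51 ± 0.17 (SE, n = 4 per group, limma adjusted p = 0.167). The adaptor Blnk, which links the kinases to phospholipase C, lay between 1.45 and 1.61 on the Mdr1a-/- arrays and between 1.18 and 1.40 on the others. These groups do not overlap either, but their log2 fold change of 0.21 ± 0.12 missed the threshold (SE, limma adjusted p = 0.488). The scaffold Bank1 had log2 ratios of 0.75, 1.49, 0.17 and 0.92 against -0.01, 0.18, -0.16 and 0.79. Its 3 probes gave 0.63, 0.95 and -0.30, the last above background on 0 arrays. The kinase Blk gave -0.05.

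Of the 6 transcription and early lineage genes, Pou2af1 stood out. It encodes OCA-B, a coactivator that B cells need for germinal centres and that works with the octamer-binding factors Oct-1 and Oct-2. Its log2 ratio was 2.44, 2.75, 1.03 and 2.75 on the Mdr1a-/- arrays and 0.55, 0.74, 0.68 and 1.01 on those labelled FVB/N. The groups did not overlap, but Mdr1a-/- array 3 lay just above the highest array of the other group and far below the other 3. The log2 fold change of 1.50 ± 0.36 (SE) missed the threshold with all arrays (n = 4 per group, limma adjusted p = 0.0602). It passed in 5 of the other processing settings, where the adjusted p lay between 0.0196 and 0.0453, and not with scan day as a block (1.25, adjusted p = 0.230). Within scan day 2 it was 1.98 and within day 3 it was 0.16.

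The remaining 5 of this role did not pass. Vpreb3, a small chain that binds free immunoglobulin chains in B cells, gave 0.41 ± 0.17 (SE, n = 4 per group, limma adjusted p = 0.278), and its 2 probes had the same sign. Pax5, which holds B cells to their lineage, gave 0.22, and Pou2f2, which encodes Oct-2, gave 0.17. Spib, an ETS factor of B cells and of the M cells that cover follicles, gave 0.02, and Ebf1, an early factor of the lineage that stromal cells and adipocytes also express, gave -0.06. The signals of these 4 stayed under 3 times the background limit.

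The octamer was looked for in 28 promoters of 24 of the members. It stood in 2 of them, 7.14%, against 570 of 32851 promoters of the same length in the RefSeq table, 1.74%. The word GAGGAAGT stood in those of Cd37 and Cd72, also 2 of 28, against 3.20% of all. A match of letters is a description and not a binding site. The 2 promoters with the octamer, in capitals and here read on the opposite strand as ATTTGCAT, are those of Vpreb3 at chr10:75948050-75948349 (+), first base at -45 from the gene's start, and of Blnk at chr19:40994172-40994471 (-), with its first base at -130. Both come from RefSeq, GRCm38.p6. They are shown because they are the only ones of the 24 searched members with the word, and both had fold changes above 0 that missed the threshold.
Vpreb3: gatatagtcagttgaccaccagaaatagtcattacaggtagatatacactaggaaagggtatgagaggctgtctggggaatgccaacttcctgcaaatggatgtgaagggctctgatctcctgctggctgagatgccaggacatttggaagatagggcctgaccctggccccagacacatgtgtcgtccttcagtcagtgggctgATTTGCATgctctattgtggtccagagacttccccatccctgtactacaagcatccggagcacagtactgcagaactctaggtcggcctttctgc
Blnk: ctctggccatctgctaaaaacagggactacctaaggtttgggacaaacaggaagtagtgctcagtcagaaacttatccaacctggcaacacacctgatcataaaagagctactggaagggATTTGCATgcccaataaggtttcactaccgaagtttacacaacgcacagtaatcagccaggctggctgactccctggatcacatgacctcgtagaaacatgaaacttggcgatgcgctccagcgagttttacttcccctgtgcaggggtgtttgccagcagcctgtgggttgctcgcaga

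The 5 plasma cell genes split. Mzb1, a chaperone of antibody assembly in the endoplasmic reticulum, had log2 ratios of 2.45, 2.46, 0.79 and 2.44 on the Mdr1a-/- arrays and 0.98, 1.78, 0.91 and 1.34 on those labelled FVB/N. Mdr1a-/- arrays 1, 2 and 4 were nearly equal, and array 3 was the lowest of all 8. For Mzb1 this came to a log2 fold change of 0.78 ± 0.38 (SE, n = 4 per group, limma adjusted p = 0.394). Derl3, part of the machinery that removes misfolded proteins from that compartment, had log2 ratios of 1.60, 1.40, -0.49 and 1.38 against 0.18, 0.57, 0.33 and 0.69. Array 3 was again the lowest of all 8 and the other 3 Mdr1a-/- arrays were the highest, for a log2 fold change of 0.53 ± 0.42 (SE, limma adjusted p = 0.639).

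Prdm1, which encodes Blimp-1, the repressor that drives plasma cell differentiation and is also active in epithelium and T cells, had a log2 fold change of 0.66 ± 0.25 (SE, n = 4 per group, limma adjusted p = 0.242). Sdc1, a heparan sulfate proteoglycan on plasma cells and, strongly, on epithelium, had log2 ratios of 0.82, 0.35, 0.63 and 0.96 against 0.95, 1.21, 1.32 and 0.88. Its log2 fold change of -0.40 ± 0.18 (SE, limma adjusted p = 0.325) is the lowest of the 29, and was not called. Of 7 epithelial markers 0 were called and their signs were mixed. Cdh1 and Epcam, which encode adhesion proteins, gave -0.47 and -0.46, Vil1 -0.43 and Krt19 -0.16, while Krt8 gave 0.07, Krt20 0.08 and Cdx2 0.45, and their part in the Sdc1 value was not tested. Igj, the J chain of polymeric antibody, was bright on every array, with a log2 fold change of 0.13 ± 0.17 (SE, limma adjusted p = 0.797). Its brightest probe was near saturation, at a Cy3 intensity of at least 60000, on 3 Mdr1a-/- arrays and 2 of the others, which can compress a difference. Its other probe, near saturation on 3 Mdr1a-/- arrays and 1 of the others, gave -0.01.

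**Figure D3:**
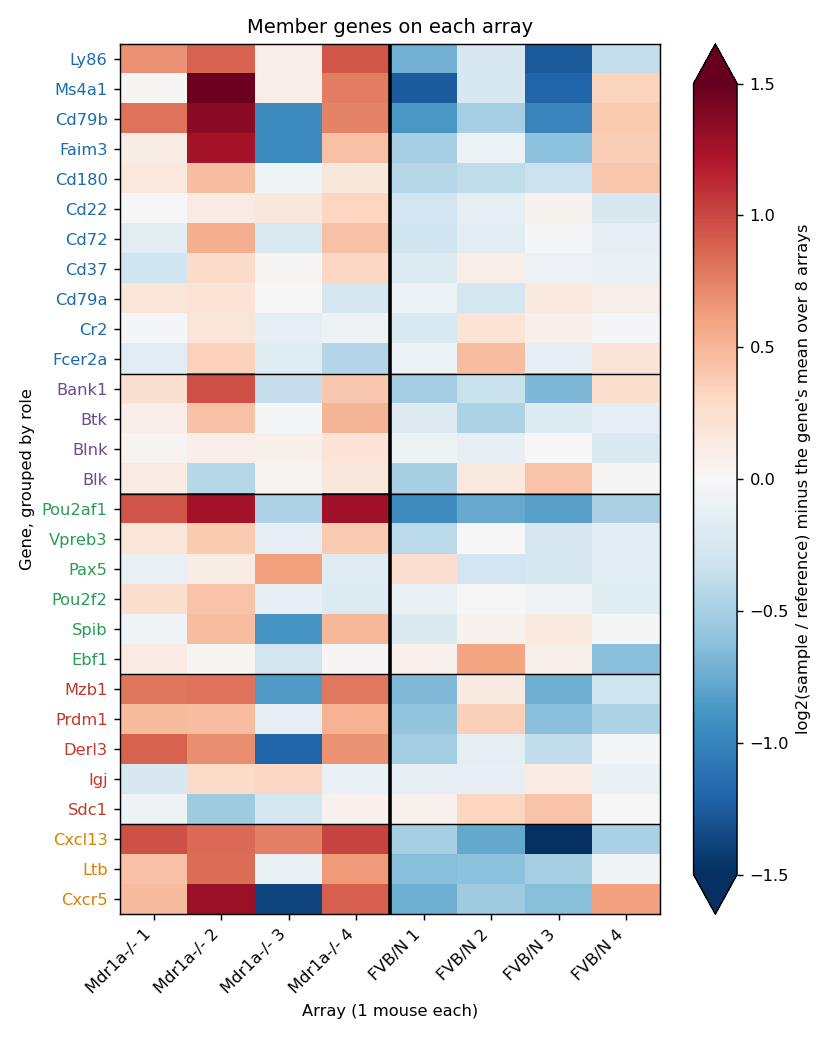
Log2(sample / reference) of each gene minus its mean over the 8 arrays, with genes grouped by role and arrays in columns (1 mouse each; FVB/N as labelled); the colour scale ends at -1.5 and 1.5. Mdr1a-/- replicate 3 is blue for Cxcr5, Derl3, Mzb1, Cd79b, Faim3 and Spib and red for Cxcl13.

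Mdr1a-/- array 3 was the lowest array of its group for 18 of the 29 genes, while array 2 was the highest for 13 and array 4 for 12. In the other group array 1 was the lowest for 14 and array 4 the highest for 11. The mean over the 29 genes, each centred on its own mean, was 0.24, 0.54, -0.23 and 0.38 on the Mdr1a-/- arrays and -0.39, -0.13, -0.35 and -0.06 on those labelled FVB/N. Mdr1a-/- array 3 therefore lay among the arrays of the other group in this mean. For 11 of the 29 genes Mdr1a-/- arrays 1, 2 and 4 all lay above every array labelled FVB/N, as did 8.32% of all probes, in a count that leaves out an array singled out after its values were seen.

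Without Mdr1a-/- array 3, 6 of the 29 genes rose by limma's adjusted p and 0 fell, where 1.9% of all probes were called higher. These were Cxcl13 and Ly86 with Pou2af1 (1.90 ± 0.17, SE, adjusted p = 0.00293), Derl3 (1.02 ± 0.17, SE, adjusted p = 0.0177), Ltb (1.08 ± 0.20, SE, adjusted p = 0.0234) and Mzb1 (1.20 ± 0.22, SE, adjusted p = 0.0262). The smaller fit has 3 Mdr1a-/- arrays against 4, and the array left out was singled out after its values were seen. That array was the only Mdr1a-/- array scanned on day 3, together with arrays 2 and 4 of the group labelled FVB/N, so mouse and scan day cannot be told apart for it. Within day 3, 12 of the 29 fold changes were above 0 and 17 below, with Cxcr5 at -1.42, Derl3 at -1.12 and Faim3 at -1.10. There the 1 Mdr1a-/- array lay above both others for 8 genes and below both for 11, where 38.5% and 33.7% of all probes did, so this count is near the background. Within day 2, with 2 arrays of each group, 27 were above 0 and 2 below, and without overlap 18 lay above and 1 below, where 20.9% and 19.9% of all probes did. Mdr1a-/- array 3 also differed in another tissue's markers. Its mean over 5 smooth muscle markers was 0.35, against -0.50 to -0.37 on the other 3 Mdr1a-/- arrays. That lies within the range of the arrays labelled FVB/N, -0.01 to 0.56. Its share of probes above background, 71.4%, was the lowest of its group (others 75.9% to 84.9%), where the arrays labelled FVB/N had 67.0% to 86.3%. The part of either in the B cell values was not tested.

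The array holds 35 probes listed under immunoglobulin chain names, of which 5 rose and 0 fell in limma. The brighter Ighg probe, for the constant part of IgG, had log2 ratios of 2.45, 3.10, 2.79 and 2.53 on the Mdr1a-/- arrays and 0.18, 0.88, 0.03 and 0.24 on those labelled FVB/N. All 4 Mdr1a-/- arrays, with array 3 the second highest, lay far above the others, by 2.38 ± 0.22 on the log2 scale (SE, n = 4 per group, limma adjusted p = 0.00167). The scan-day block kept this call (2.49, adjusted p = 0.0146), and so did each of the 8 fits without 1 array. The probe was near saturation on 2 Mdr1a-/- arrays. Of the 3 probes of Igh-4, the older symbol of the IgG1 constant gene Ighg1, 2 rose, 1 by 2.32 ± 0.30 (SE, limma adjusted p = 0.00485) and 1 by 2.22 ± 0.40 (SE, limma adjusted p = 0.0207), the latter in 5 of the 8 fits without 1 array. With scan day as a block the first kept its call (adjusted p = 0.0404) and the second did not (2.27, adjusted p = 0.0712).

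One of 4 probes of Igh-6, the IgM constant gene Ighm, rose by 1.53 ± 0.26 (SE, n = 4 per group, limma adjusted p = 0.0150), and the other 3 gave 1.02, 0.22 and 0.89. The scan-day block ended the call of that Igh-6 probe (1.38, adjusted p = 0.0870). The last of the 5, a probe of Igh-1a, was above background on 2 Mdr1a-/- arrays and 0 of the others. Its log2 fold change was 1.07 (limma adjusted p = 0.0264). It was called in 3 of the 8 fits without 1 array and not with the scan-day block (adjusted p = 0.0841). On Cy3 values, with the arrays labelled FVB/N raised to at least the dimmest signal above background, it was 1.49-fold higher. That value is open to dye bias. It is no lower limit, since the remaining Mdr1a-/- arrays were below background too. The other Igh-1a probes gave 0.33 and -0.14. The constant genes resemble each other and probes of 1 gene gave different values (the dimmer Ighg probe gave -0.25), so which chain each probe reads is uncertain. The kappa constant probe Igk-C gave 0.64 ± 0.41 (SE, limma adjusted p = 0.533). The mean over all 35 probes was 0.67, 0.48, -0.21 and 0.54 on the Mdr1a-/- arrays and -0.57, 0.08, -0.58 and -0.41 on the others, so array 3 was the lowest of its group in this mean and the second highest on the brighter Ighg probe. On the dimmer Ighg probe array 3, at 0.43, lay below 3 of the 4 arrays labelled FVB/N.

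**Figure D4:**
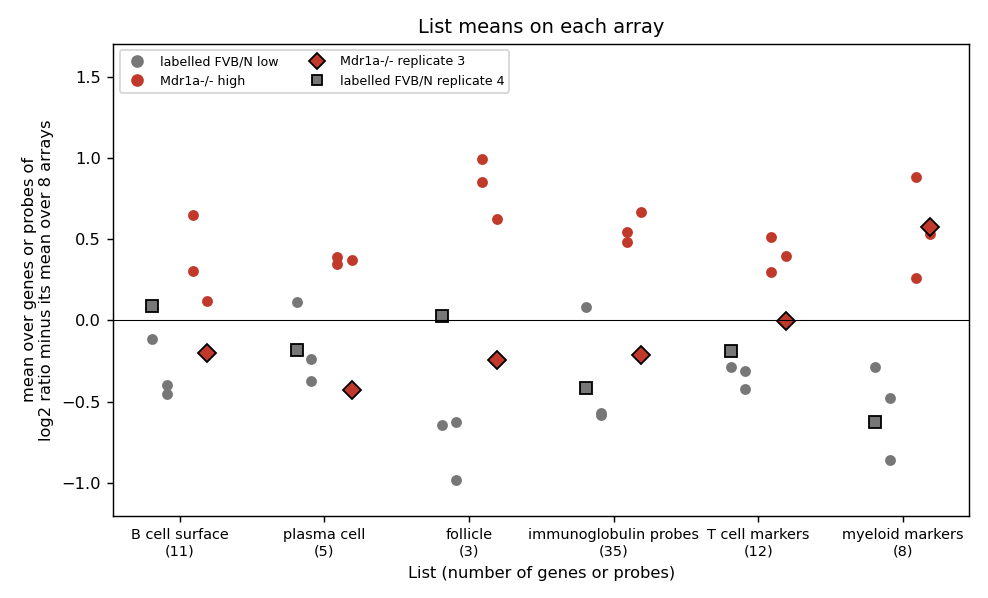
Mean over the genes or probes of each list of log2(sample / reference) minus its mean over the 8 arrays, with 1 point per array. Mdr1a-/- replicate 3 (diamond) lies among or below the arrays labelled FVB/N for B cell surface, plasma cell and follicle genes, and among the other Mdr1a-/- arrays for myeloid markers, at 0.57.

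Companion lists place these values beside the other genes of the pathways and beside other cells. They were chosen with earlier results of these data known. Of 18 other genes of B cell receptor signalling, 6 rose and 0 fell in limma: the phosphatase Inpp5d (SHIP1) by 1.34, the kinase subunit Pik3cd by 1.29, the kinase Lyn by 0.94 and the inhibitory Fc receptor Fcgr2b by 1.66 were those with the smallest p, with SEs of 0.15, 0.18, 0.15 and 0.28. Myeloid cells use these 4 as well. With scan day as a block 1 of the 6, Inpp5d, kept its call (adjusted p = 0.0290). For Inpp5d Mdr1a-/- array 3 was the highest of all, at 2.26, unlike for the B cell surface genes.

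Of 8 myeloid markers 2 rose, Cybb, the phagocyte oxidase subunit, by 2.20 ± 0.17 (SE, limma adjusted p = 0.000994) and the complement component C1qa by 1.11 ± 0.23 (SE, limma adjusted p = 0.0379). C1qa was called in 2 of the 8 fits without 1 array and not with scan day as a block (0.97, adjusted p = 0.186), while Cybb kept its call in all of these (adjusted p = 0.0146 with the block). The myeloid mean lay between 0.26 and 0.88 on the Mdr1a-/- arrays and between -0.86 and -0.28 on the others, with 7 of the 8 markers above background on every array. Of 12 T cell markers 4 rose: Cd6 by 1.33, Thy1 by 1.14, Lck by 1.05 and Cd3d by 1.11 on the log2 scale, with limma adjusted p between 0.00407 and 0.0368. These are the brightest probes. The dimmer Cd6 probe, also above background on every array, gave -0.10 (limma adjusted p = 0.873). The dimmer Thy1 probe gave 0.92 and was not called (limma adjusted p = 0.164). Dropping 1 array at a time, Cd6 was called in 8 of 8 fits, Lck in 2, and Thy1 and Cd3d in 1 each. With scan day as a block Cd6 kept its call (adjusted p = 0.0455), and Thy1, Lck and Cd3d lost theirs (adjusted p = 0.143, 0.170 and 0.178). The T cell mean was 0.40, 0.51, -0.00 and 0.30 on the Mdr1a-/- arrays, where array 3 was again the lowest, and between -0.42 and -0.19 on the others. The part of T cells and myeloid cells in the values of genes that they share with B cells was not tested.

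Among 12 other plasma cell and survival genes 0 were called. The smallest p belonged to Pigr, the polymeric immunoglobulin receptor of the epithelium, at -0.78 ± 0.26 (SE, n = 4 per group, limma adjusted p = 0.172), and to Tnfrsf13c, the BAFF receptor of mature B cells, at 1.36 ± 0.58 (SE, limma adjusted p = 0.314). Tnfrsf13c had log2 ratios of 1.52, 2.81, 0.19 and 1.97 against -0.23, 0.70, -0.72 and 1.32, with Mdr1a-/- array 3 low and array 4 of the other group high, as for Cd79b. Of 14 germinal centre and T cell help genes 0 were called, with Cd40, the receptor for T cell help, at 0.66 and Bcl6, the germinal centre repressor, at 0.43 (limma adjusted p = 0.140 and 0.347). Of 15 lymphoid organiser genes 0 rose. In limma the epithelial, adipose, pancreatic and smooth muscle lists held 0 called genes each. The 2 of smallest p were Cdh1 and Epcam, both given above, Lep and Adipoq at -0.96 and -1.97, Cpa1 and Pnlip at -1.71 and -1.76, and Myh11 and Acta2 at -1.05 and -0.66. The adipose mean, centred as above, was 0.68, 1.68, 1.29 and -1.22 on the arrays labelled FVB/N. It lay between -0.84 and -0.23 on the Mdr1a-/- arrays. Array 4 labelled FVB/N, high for Cd79b and Tnfrsf13c, was thus the lowest of all in it. The pancreas mean was 0.68, -1.01, -1.09 and -0.86 on the Mdr1a-/- arrays and -0.02, 1.41, 1.02 and -0.14 on the others. The part of these tissues in the B cell values was not tested.

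The genes nearest in profile to the 11 surface genes, out of the 19440 named genes and by the root mean square distance over the 8 arrays, were Traf3ip3 at 0.075, Itgae, Olfr1097, Ccr6, Map1s, Gabra4, Olfr874, Olfr458, Atp8b2 and Tmem201 at 0.140. Traf3ip3 had log2 ratios of 0.72, 1.14, 0.39 and 0.80 against -0.02, 0.46, 0.07 and 0.46. Ccr6 is a chemokine receptor of B cells, of Th17 cells and of the cells of isolated follicles, and Itgae an integrin chain of intraepithelial lymphocytes. The list also holds the olfactory receptors Olfr1097, Olfr874 and Olfr458, and Gabra4, so it is not one of lymphocyte genes alone. The signals of these lay near the background limit. They were 1.11 to 3.10 (Olfr1097), 0.82 to 1.42 (Olfr874), 1.13 to 2.21 (Olfr458) and 0.90 to 2.12 (Gabra4) times it. Limma called 0 of the 10. The profile used for this ranking was that of a mean, and the distance depends on the size of the changes as well as on their order. A short distance says only that the values stay close to that mean over the same mice. The 11 surface genes themselves lay between 0.177 (Cd180) and 0.563 (Cd79b), further off than the 10 listed.

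The authors' deposited table of the same comparison gives adjusted p-values under 0.05 with higher values for 9 of the 29 genes and with lower values for 0, where 6.31% of its spots with a fold change are so. The 9 are Pou2af1 (1.49), Cxcl13 (1.26), Ly86 (1.24), Mzb1 (1.20), Ltb (1.03), Derl3 (0.92), Prdm1 (0.64), Btk (0.45) and Blnk (0.30), all log2 fold changes of the authors' deposited table. In that table Ms4a1 at 0.92 and Cd79b at 0.87 did not pass, with adjusted p-values of 0.214 and 0.319. Its sign opposed that of the arrays for 5 of the 29, all without a call, among them Sdc1 at 0.19 in the authors' deposited table against -0.40 on the arrays. The 8 arrays did not reproduce that table. From the authors' own log2 ratios of these arrays limma called 2 of the 29 genes higher, and 603 of all probes. Abcb1a was at -0.31 in that fit, against -1.62 in the authors' deposited table. The cause of this gap was not tested. The table's fold changes are described as log10 by the submitters but are read here as log2, since they had a slope of 0.87 on log2 fold changes of the arrays without background correction.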

How the data were processed

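Colon RNA of 8 mice was measured on 2-colour arrays, 4 per group, 1 array per mouse. Per the file headers, the deposited array files give raw intensities per spot, foreground and local background, for both channels, and a log2 ratio that the authors normalized by loess per the deposited description. The submitters' processing notes name limma without a version. Set against the intensities, that log2 column proved to be reference over sample after background subtraction, so its sign was turned where it was used as an alternative. The authors' deposited table holds log2 fold changes, mean log2 intensities, test scores (t and B, not used here), p-values and adjusted p-values for 35449 of 44290 spots.

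R 4.3.3 and limma 3.58.1 were used: normexp background with an offset of 50, loess within each array with control spots at weight 0, spots of a probe averaged, two-sided tests by lmFit and eBayes with no covariate, and Benjamini-Hochberg adjustment over 41174 probes with a threshold of 0.05. A gene is given by its brightest probe. Probes were named through accessions (22072), current symbols (6280) or older symbols (4211), and 8611 stayed unnamed. The labels' protocols describe separate mice. The arrays were scanned on 3 days, numbered in order: 1 Mdr1a-/- array on day 1, 2 arrays per group on day 2, and on day 3 1 Mdr1a-/- array with 2 labelled FVB/N. Each slide held 1 array. The precision is limited by the 4 arrays per group. The fit was also run on simulated data, but the outcome is not reported here and no call rests on it.

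The members and the companion lists were chosen with earlier results of these data known, and the list of immunoglobulin probes was added once the probe names were seen. The text names all 29 members, the called genes of each companion list (at most 4 by p, or the 2 of smallest p where none was called), Abcb1a and the 10 genes nearest in profile to the surface genes. Alternatives were the authors' log2 ratios, no background correction, median centring, Cy3 alone, dim probes left out, array weights, the mean over a gene's probes, scan day or replicate number as a block, each scan day alone and each array left out. Promoters and their motifs were read with Python from RefSeq, and the promoters of Cd79b, Ms4a1, Blk, Cxcr5 and Mzb1 were not used here. A result on 1 lymphoid organiser gene is not reported here.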

Additional observations from a re-analysis of the deposited data

Results flagged for a closer look

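Single arrays stood apart from the other 3 of their group, by Dixon's test at the 95% level, in 11 of 92 groups of 4 values checked. Chance gives about 1 in 20 for independent checks. These checks are not independent, since list means hold genes also checked singly and all share the same mice. On Mdr1a-/- array 3 the log2 ratio of Mzb1 was 0.79 (others 2.44 to 2.46), that of Derl3 was -0.49 (others 1.38 to 1.60) and that of Prdm1 was -0.38 (others 0.23 to 0.29). The same array was low in the mean of the 5 plasma cell genes, at -0.43 (others 0.34 to 0.39), and high in that of the smooth muscle markers, at 0.35. Mdr1a-/- array 1 was high in the mean of the pancreas markers, at 0.68 (others -1.09 to -0.86).

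Among the arrays labelled FVB/N, array 4 was high for Cxcr5, at 1.19 (others -0.16 to 0.04), for Cd180, at 0.84 (others 0.01 to 0.11), and for the mean of the other plasma cell and survival genes, at 0.17. Array 2 was high for Prdm1, at 0.12 (others -0.86 to -0.70), and array 3 for Igj, at 0.92 (others 0.64 to 0.69), a probe near saturation on 2 of these arrays.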

How the results depend on the processing

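Within scan day 3, where 1 Mdr1a-/- array meets 2, the members' median log2 fold change was -0.050 (0.36 with all arrays) and 8 members lay above and 11 below without overlap (38.5% and 33.7% of all probes); within day 2 these were 18 and 1 (20.9% and 19.9%), and 0 probes, members or listed genes passed in limma. With scan day as a block limma called 133 probes higher and 115 lower (628 and 598 without it), 0 members, 1 T cell, 1 myeloid and 1 other receptor signalling gene, 2 immunoglobulin probes and 0 organiser genes lower. Array weights gave 1081 and 939 probes, 12 immunoglobulin probes, 5 myeloid genes and 2 organiser genes higher. Median centring gave 9 immunoglobulin probes and 1 organiser gene higher. No background correction and leaving out dim probes gave 4 myeloid genes each. Cy3 alone gave 1 member lower without overlap, for which no share of all probes was taken. The mean over probes gave 2 T cell genes and 1 other plasma gene, with no value for the immunoglobulin list. The cause of these shifts was not tested.

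Same-numbered arrays correlated at -0.03 to 0.11 in their deviations, and other pairs at -0.01 on average. These correlations are small, but 4 of them cannot exclude that the replicate numbers pair the mice. With the replicate block limma called 310 probes higher and 286 lower, 1 T cell, 1 myeloid and 1 other receptor signalling gene, and 0 organiser genes lower, and 2 members. Leaving out 1 array at a time gave 250 to 783 probes higher and 247 to 675 lower, 1 to 6 members called, and a median of 0.27 to 0.44. It gave 1 to 5 T cell, 1 to 4 myeloid, 4 to 9 other receptor signalling genes, 3 to 14 immunoglobulin probes, 0 to 4 organiser genes higher and 0 to 1 lower, 0 to 4 adipose, 0 to 1 pancreatic and 0 to 2 smooth muscle genes lower, and an Abcb1a fold change of -0.51 to -0.24. In these fits 5 to 11 members lay above without overlap and 0 to 1 below. The 11 were without Mdr1a-/- array 3, where 8.32% of all probes lay above. For the other fits, and for members below, no share of all probes was taken. The 4 arrays per group and the dim signal of 13 members limit what could be detected.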

Other observations

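Outside the genes named by rule, Tnfsf11, which encodes RANKL, the cytokine that stromal cells use to induce lymphoid tissue and M cells, was singled out after its values were seen. Its log2 ratio was 2.42, 2.49, 0.10 and 2.90 on the Mdr1a-/- arrays and -0.19, 0.90, -0.13 and 0.22 on those labelled FVB/N. These differ by 1.78 ± 0.56 as a log2 fold change (SE, n = 4 per group, limma adjusted p = 0.147), and without Mdr1a-/- array 3 by 2.40 at an adjusted p of 0.00485. Within scan day 3 it was -0.46. The 2 probes of the gene had the same sign.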
